A study of Homo sapiens with 8 samples.

Results

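The data concern 10 human genes for enzymes that add methyl groups to H3K9, a lysine in the tail of histone H3, or belong to families that remove them. The members are the methyltransferase genes SUV39H1, SUV39H2, SETDB1, SETDB2, EHMT1 and EHMT2, and the demethylase-family genes KDM3A, KDM3B, JMJD1C and KDM4C. They were chosen by name, and every m6A peak overlapping their RefSeq GRCh38 bounds by at least 1 bp was taken. This gave 28 of the 29084 peaks of the wild-type list and 27 of the 23937 peaks of the METTL3-knockout list, in 10 of 20056 protein-coding genes.

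The cells were HEK293T, an established human embryonic kidney line, in parental (WT) form and with METTL3 knocked out. RNA bound to chromosomes was compared before (input) and after immunoprecipitation (IP) of N6-methyladenosine (m6A), the modified base that the METTL3 complex writes on RNA. The 8 samples formed 4 groups of 2 replicates: WT input, WT IP, knockout input and knockout IP. Each genotype is represented by 1 combined peak list without values per replicate, so each difference below compares these lists and has no replicate check. How the knockout was made and how many clones were used are not given in the sources used here.

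Methylation of H3K9 marks silent chromatin. SUV39H1 and SUV39H2 write its trimethylated form at constitutive heterochromatin, SETDB1 does so at retroelements and zinc finger gene clusters with the corepressor TRIM28, and EHMT1 and EHMT2 (GLP and G9a) form a heterodimer that writes the mono- and dimethylated forms in euchromatin. Jumonji-domain enzymes of the KDM3 and KDM4 families remove the mark. The title of the study concerns the acetylation of the same residue.

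Each peak is described by its fold, which is IP over local input at its summit as given by the authors' peak caller. The whole IP reads under each summit were recovered from the fold and the p-value, and the 95% interval of a fold below covers the counting error of these reads only. Member summits rested on 13 to 124 IP reads in wild type (median 31) and 12 to 183 in the knockout (median 26), where all peaks of the lists had medians of 25 and 31. Local input is given below in reads per 200 bases.

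Of the 10 genes, 8 held a wild-type peak (80.0%) and 7 a knockout peak (70.0%), above the 39.6% and 34.8% of all protein-coding genes, which were not matched for length or expression. Peaks of both lists occurred in 5 genes, EHMT1, EHMT2, KDM3A, JMJD1C and KDM4C. SETDB1, SETDB2 and KDM3B had wild-type peaks alone, which was 3 of 8, against 32.8% of the protein-coding genes with a wild-type peak. SUV39H1 and SUV39H2 had knockout peaks alone, 2 of 7 against 23.6%. The shares with peaks in 1 list alone are close to the background, and they rest on few genes.

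**Figure D1:**
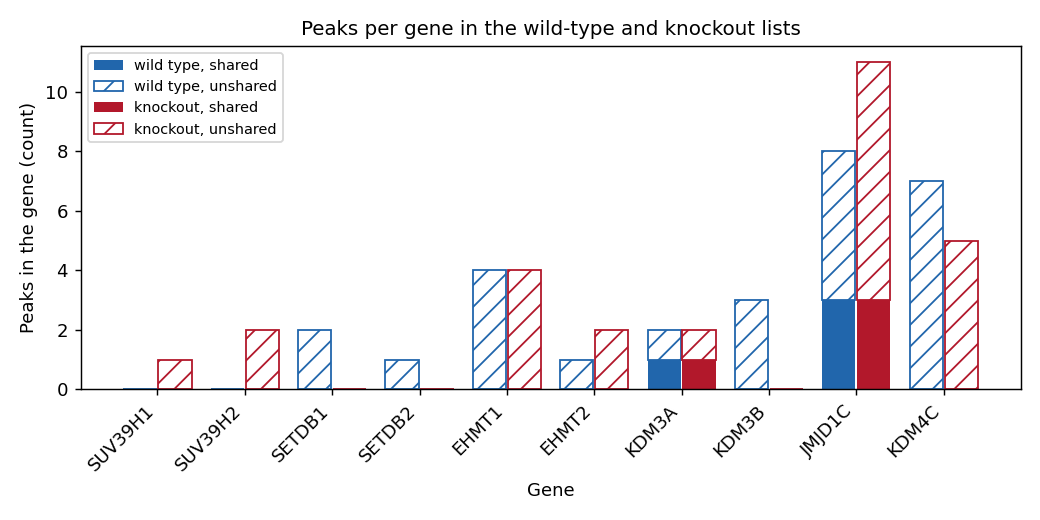
Number of peaks (count, y axis) in each of the 10 genes (x axis) in the wild-type (blue) and knockout (red) lists, with shared peaks filled and unshared peaks hatched. JMJD1C held 8 and 11 peaks and KDM4C 7 and 5, and filled bars occur in KDM3A and JMJD1C alone.

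Shared peaks were those whose counterpart from the other genotype covered at least 1 bp of them on the same strand. Of the wild-type member peaks 24 of 28 were unshared (85.7%, 95% Clopper-Pearson interval 67.3 to 96.0), against 79.6% of all wild-type peaks. Of the knockout member peaks 23 of 27 were unshared (85.2%, 66.3 to 95.8), against 75.2% of all knockout peaks. Both background values lie inside the members' intervals. These intervals treat the peaks as independent, although many lie in the same gene, so they may be too narrow. The 4 shared peaks lay in JMJD1C, with 3, and KDM3A, with 1. None of the 8 WT and 9 knockout peaks in the 6 methyltransferase genes was shared. The 4 demethylase-family genes accounted for 20 WT and 18 knockout peaks, and 4 of each were shared. Absence from a list means that the caller reported no peak there. The signal at such a place was not analysed here.

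No unshared member peak had a peak of the other list within 1 kb on the same strand. Such distances were not computed for all unshared peaks, so they are not shown to be particular to the members. The nearest peak of the other list on the same strand was 1.33 kb away at the closest and 15.6 kb at the median for unshared wild-type member peaks, and 1.33 and 16.2 kb for unshared knockout ones. Shared peaks had more reads, with a median of 82.5 IP reads against 29 for unshared WT member peaks, and 78.5 against 26 for knockout ones. Read support and sharing also went together over the whole lists. Wild-type peaks with 26 to 50 reads were unshared in 77.0% of cases, and 13 of 14 members in that class were. Among peaks of more than 100 reads 30.7% of all wild-type peaks were unshared, and 0 of 2 members. In the knockout that class was unshared in 30% of cases, and 2 of 3 members were.

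**Figure D2:**
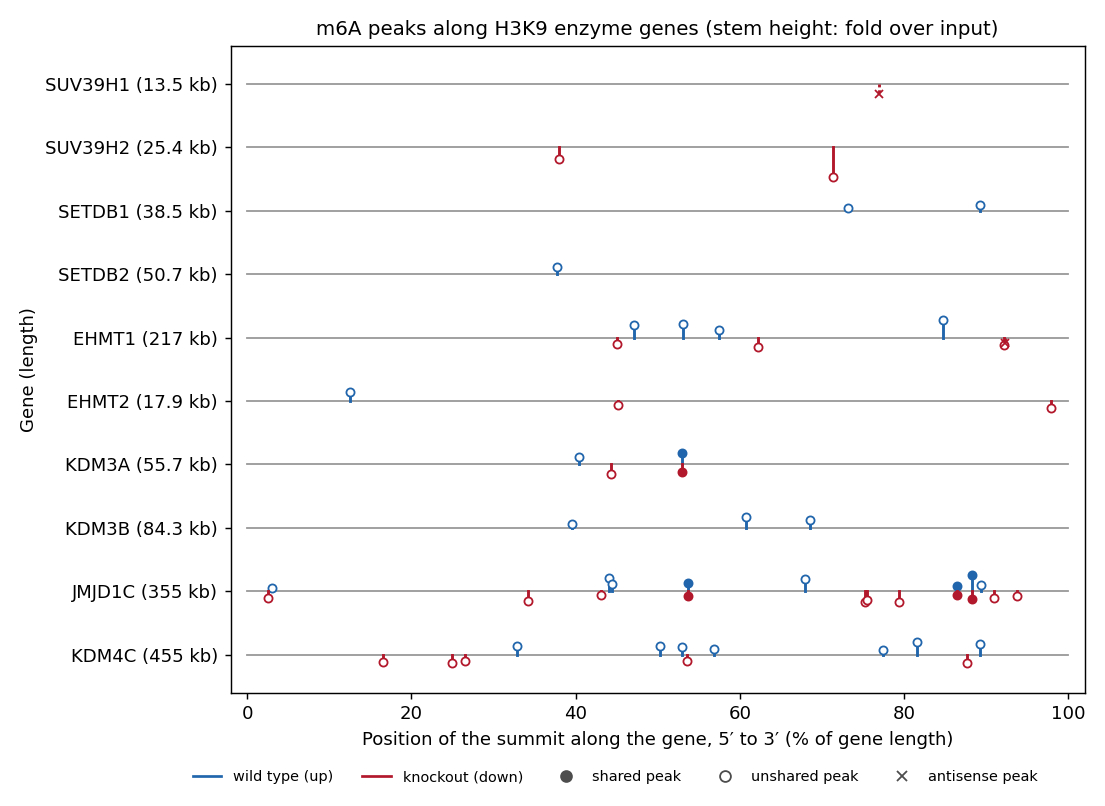
Position of each peak summit along its gene, read from the 5′ to the 3′ end of the RefSeq bounds (x axis, % of gene length), for wild-type peaks (blue, up) and knockout peaks (red, down). Stem height is the fold over input, filled points are shared peaks and crosses are antisense peaks. The tallest stem is the SUV39H2 knockout peak of fold 27.5 at 71.3% of the gene.

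Among the methyltransferase genes, SUV39H2 carried the strongest member peak of either list. Its gene lies on chromosome 10 from 14878866 to 14904315 on the plus strand. The peak at 14896844 to 14897162, on the same strand, had a knockout fold of 27.5 (22.3 to 33.6) from 92 IP reads over a local input of 0.64. Only 34 of the 23937 knockout peaks had a higher fold. A second SUV39H2 peak, at 14888497 to 14888720, had a knockout fold of 11.2 (8.36 to 14.7) from 47 reads and stood at the 90.4th percentile of its list. The wild-type list had 0 peaks in SUV39H2, and its nearest plus-strand peak lay 16.8 kb from the stronger knockout peak. Among all knockout peaks with a fold of 20 or more, 150 in number, 29.3% had no wild-type partner. Of the protein-coding genes with 2 knockout peaks, 18.7% had 0 wild-type peaks. The gene DCLRE1C, which shares part of these bounds, is on the minus strand.

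Its paralog SUV39H1, on the X chromosome from 48695554 to 48709016, held 1 knockout peak and 0 wild-type peaks. That peak, at 48705771 to 48706079 with a fold of 9.19 (6.22 to 13.2) and 25 reads, lay on the minus strand, opposite to the gene. Of the 3234 protein-coding genes with 1 knockout peak, 37.8% had 0 wild-type peaks. SUV39H1 thus had no peak on its own strand in either list.

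SETDB1, on chromosome 1 from 150926263 to 150964737, held 2 wild-type peaks and 0 knockout peaks. The peak at 150960441 to 150961099 was 659 bp wide with a wild-type fold of 5.43 (4.19 to 6.94) and 61 reads. The other, at 150954419 to 150954618, had a fold of 2.83 (1.97 to 3.96), at the 1.38th percentile of the list. Local input was 6.0 at both, against a list median of 0.84. Protein-coding genes with 2 wild-type peaks had 0 knockout peaks in 32% of cases. SETDB2, a related gene on chromosome 13, held a single wild-type peak at 49463335 to 49463534 with a fold of 6.31 (3.81 to 10.0) and 15 reads. That peak also lies in the readthrough gene SETDB2-PHF11 on the same strand, and its reads cannot be assigned to one of them. Of the protein-coding genes with 1 wild-type peak, 52.4% had 0 knockout peaks.

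EHMT1, which encodes GLP, held 4 peaks in each list with 0 shared, on chromosome 9 between 137619005 and 137836127. Its wild-type peaks had folds of 12.2, 12.6, 6.99 and 16.5 in 5′ to 3′ order. Its knockout peaks, at other places, had folds of 5.65, 9.13, 7.38 and 5.51, the strongest at 137754066 to 137754278 with an interval of 5.91 to 13.6. The wild-type peak at 137802720 to 137802952 had the highest wild-type fold of any member, 16.5 (11.5 to 23.1) from 31 reads, and stood at the 98.4th percentile. Its local input was 0.2, below the lower quartile of all wild-type peaks (0.3), and the interval leaves out the error of that input. The wild-type median fold of 12.4 in EHMT1 compares with 6.51 for its knockout peaks, but these are peaks at different sites. The closest wild-type and knockout peaks of the gene were 4.03 kb apart.

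The last EHMT1 knockout peaks overlapped each other on opposite strands. The sense peak at 137819158 to 137819357 had 25 reads, and the antisense peak at 137819237 to 137819436 had 12 reads and a fold of 5.51 (3.27 to 8.97). Such opposed overlap was rare, since 28 knockout peaks (0.117%) overlapped a knockout peak of the other strand.

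EHMT2, which encodes G9a, is on the minus strand of chromosome 6 from 31879759 to 31897698. Its wild-type peak at 31895384 to 31895583 had a fold of 8.18 (5.52 to 11.7) from 26 reads, and with its summit 2.24 kb from the annotated start it was the member peak closest to a start site. The knockout peak at 31889524 to 31889737 had the most reads of all member peaks, 183, over a local input of 20, the highest at any member peak. Its fold was low, at 3.86 (3.33 to 4.46), the 5.06th percentile. The other knockout peak, at 31880085 to 31880286 with a fold of 6.49 (4.98 to 8.33), had its summit 375 bp from the 3′ bound and was the only member peak within 500 bp of a gene end. It also lies in EHMT2-AS1, which is on the plus strand, whereas the peak is on the strand of EHMT2.

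**Figure D3:**
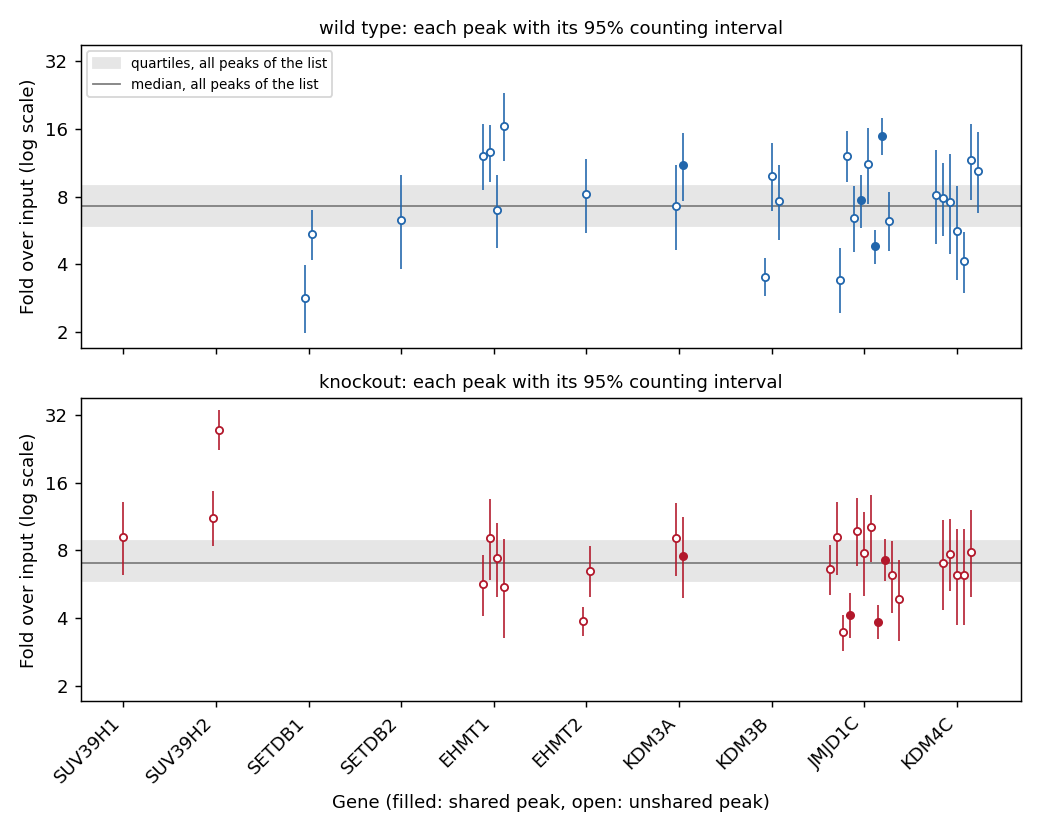
Fold over input (y axis, log scale) of each member peak by gene (x axis), with its 95% counting interval, in wild type (upper panel) and knockout (lower panel). Filled points are shared peaks, and grey bands give the quartiles of all peaks of the list, 5.92 to 8.94 (WT) and 5.82 to 8.81 (knockout).

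The folds of the members as a whole were like those of their lists. Their median WT fold was 7.66 against 7.29 for the whole list, and 16 of 28 member peaks exceeded the latter. The median knockout fold was 7.26 against 7.06, with 14 of 27 above. Peaks of methyltransferase genes had median folds of 7.59 (WT) and 7.38 (knockout), and those of demethylase-family genes 7.66 and 7.13. The strongest 10% of a list by fold held 6 wild-type and 2 knockout member peaks, and both knockout ones were the SUV39H2 peaks. The lowest 10% held 4 wild-type and 4 knockout member peaks.

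Of the demethylase-family genes, KDM3B was the only one with peaks in 1 list alone. KDM3B, an H3K9 mono- and dimethyl demethylase gene on chromosome 5 from 138352685 to 138437027, held 3 wild-type and 0 knockout peaks. Their folds were 3.52 (2.87 to 4.28), 9.91 (6.89 to 13.9) and 7.63 (5.14 to 11), from 97, 31 and 26 reads. The first, at 138385888 to 138386087, lay over a local input of 16, the highest among wild-type member peaks. The nearest plus-strand knockout peak was 490 to 514 kb away from them. Among the protein-coding genes with 3 wild-type peaks, 18.5% of 869 had 0 knockout peaks.

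KDM3A, a paralog of KDM3B on chromosome 2 from 86437044 to 86492716, held 2 peaks in each list. At 53% of the gene 1 pair was shared, with a wild-type fold of 11.01 (7.66 to 15.4) at 86466322 to 86466722 and a knockout fold of 7.56 (4.9 to 11.3) at 86466354 to 86466553. These intervals overlap. The remaining KDM3A peaks were 1.94 kb apart, with a wild-type fold of 7.29 (4.62 to 11.1) at 86459447 to 86459646 and a knockout fold of 9.10 (6.18 to 13.0) at 86461589 to 86461840.

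JMJD1C, a KDM3-family gene whose demethylase activity is disputed, held the most peaks, 8 WT and 11 knockout ones, all on its own minus strand. It spans chromosome 10 from 63167225 to 63521890. Among the protein-coding genes with a peak, 7.05% held at least 8 wild-type peaks and 2.73% at least 11 knockout peaks. Per length it held 2.26 and 3.10 peaks per 100 kb, below the medians of 3.81 and 3.24 for protein-coding genes with a peak. Those genes were not matched for length, and a short gene with any peak has a high density. The comparison therefore does not show that JMJD1C is poor in peaks for its length. Its 3 shared peaks lay at 53.7%, 86.5% and 88.3% of the gene.

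The strongest of them, at 63208515 to 63208855, had a wild-type fold of 14.9 (12.3 to 17.9) from 113 reads and a knockout fold of 7.26 (5.83 to 8.95) from 84 reads. The peak at 63331180 to 63331514 had a wild-type fold of 7.69 (5.80 to 10.0) from 52 reads. Its knockout fold was 4.12 (3.26 to 5.15) from 73 reads, over a local input of 7.0, against 3.0 in wild type. An IP read on this strand weighed 0.572 in the wild-type fold and 0.438 in the knockout fold. In these pairs the counting intervals of the genotypes do not overlap. These intervals leave out the counting error of the local input, so their separation does not show a difference between the genotypes. The broad peak at 63214855 to 63215540, 686 bp wide in wild type, had folds of 4.80 (4.0 to 5.7) and 3.86 (3.21 to 4.59), whose intervals overlap.

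Unshared JMJD1C peaks came close to each other near the 5′ end. A wild-type peak of fold 3.41 at 63511199 to 63511423 and a knockout peak of fold 6.60 at 63512751 to 63512950 were 1.33 kb apart, at 2.99% and 2.55% of the gene. The strongest unshared wild-type peak of JMJD1C, with a fold of 12.1 (9.26 to 15.7) and 56 reads, lay at 63365173 to 63365388, and the nearest knockout peak, of fold 3.45 (2.86 to 4.13), was 3.74 kb away. The strongest unshared knockout peak, at 63239948 to 63240148, had a fold of 10.1 (7.1 to 14.1) and no wild-type peak within 24.4 kb on its strand. The knockout peak at 63254631 to 63255149 also lies in the bounds of LOC124900287, whose strand is not in the tables used here.

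KDM4C, a demethylase gene for trimethylated H3K9 and the longest member at 455 kb, held 7 WT peaks and 5 in the knockout, none of them shared and all on its plus strand. It spans chromosome 9 from 6720863 to 7175648. The wild-type folds ran from 4.11 to 11.6, and 3 of the 7 peaks had 15 or fewer reads. The highest, 11.6 (7.71 to 16.9), was at 7091653 to 7091858. The knockout folds ran from 6.23 to 7.89 on 13 to 27 reads, with the highest, 7.89 (4.95 to 12.1), at 7119446 to 7119646. Peak density was 1.54 and 1.1 per 100 kb. The knockout peak at 6834505 to 6834704 also lies in ACTG1P14, annotated as a pseudogene, and whether its reads map equally well elsewhere was not tested. The closest wild-type and knockout peaks of KDM4C were 2.70 kb apart.

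Of the 5 member genes with peaks in both lists, 3 shared none (EHMT1, EHMT2 and KDM4C), against 44.2% of such protein-coding genes. With at least 4 peaks in each list, EHMT1 and KDM4C shared none and JMJD1C did, whereas 14.8% of 1071 such genes shared none. That count covers 3 genes. The minimum of 4 was not planned and equals the EHMT1 count in each list. EHMT1 reaches it in the knockout only with its antisense peak, so no conclusion is drawn from the contrast.

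At the 4 shared peaks the knockout fold was below the wild-type fold each time, in KDM3A only with the pseudocount described here. The log2 differences, knockout over wild type, were −1.04, −0.31 and −0.90 in JMJD1C and −0.54 in KDM3A, with a median of −0.72. Over all 5996 overlapping pairs 49.1% had a lower knockout fold, the median was 0.01 and the quartiles were −0.50 and 0.51. In this distribution 1 of the 4 member pairs, the broad JMJD1C peak, lay between the quartiles. The fold carries a pseudocount of 1 in both terms. Without it, a comparison added after seeing the data, the JMJD1C values were −1.12, −0.31 and −1.12, and KDM3A turned to 0.03, with local input of 0.8 (WT) and 0.4 (knockout). The reduction at KDM3A thus depends on the pseudocount. As 3 of the 4 pairs belong to 1 gene, they are not independent, and no test was made.

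**Figure D4:**
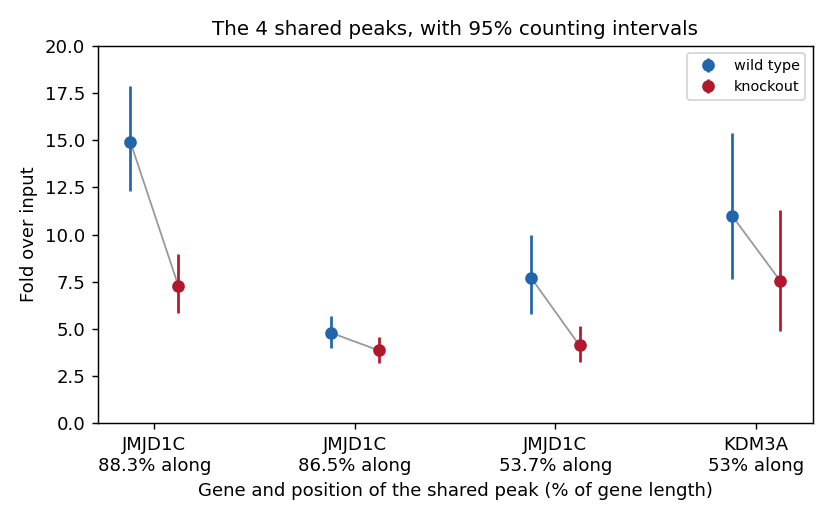
Fold over input (y axis) of the 4 shared peaks in wild type (blue) and knockout (red) with 95% counting intervals, by gene and position along it (x axis). The intervals, which leave out the error of local input, separate at the JMJD1C peaks at 88.3% and 53.7% and overlap at the other peaks. At KDM3A the direction turns when the pseudocount is left out.

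Strand and position were compared next, neither of which was used to choose the genes. On the strand of the gene lay 28 of 28 wild-type and 25 of 27 knockout peaks, against 92.0% and 91.4% of peaks in protein-coding genes of known strand. The antisense ones were those in SUV39H1 and EHMT1. Few sense peaks lay early in the gene. In the first 25% of the gene length were 2 of 28 wild-type and 2 of 25 knockout peaks, where all protein-coding genes gave 25.5% and 24.6%. These were the wild-type peak of EHMT2, the JMJD1C peaks near its 5′ end and a KDM4C knockout peak at 16.5% of the gene. A further KDM4C knockout peak fell just past that limit. The peaks are not independent, since JMJD1C held 8 wild-type and 11 knockout sense peaks and KDM4C 7 and 5. The background was not matched for gene length, and no test was made of the low share. The median position along the gene was 55.3% for WT and 53.7% for knockout peaks. The promoter windows of RefSeq, from 250 bp before to 50 bp after a start site, overlapped 0 of the member peaks in either list, and no promoter sequence is shown. The share of all peaks in such windows was not computed, so this count is not shown to be particular to the members. Whether peaks lie in exons or introns was not analysed here.

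A list of 30 other genes was grouped here under the H3K9 pathway, without a check that each demethylase acts on H3K9. They comprise readers, cofactors, further methyltransferases and further histone demethylases. Peaks were found in both lists for 20 of them, in wild type alone for 1 (WIZ, a zinc finger partner of EHMT1 and EHMT2) and in the knockout alone for 4. These 4 were CBX3, the HP1γ reader gene, UHRF1, a reader that links H3K9 methylation to DNA methylation, MORC2, an effector of the HUSH silencing complex, and the demethylase gene KDM4D. CDYL2, TRIM28, ZNF518B, HR and RIOX1 held 0 peaks in either list. A wild-type peak was thus present in 21 of the 30 genes and a knockout peak in 24, where 39.6% and 34.8% of all protein-coding genes had one. Peaks in wild type alone made up 1 of 21, against a background of 32.8%, and peaks in the knockout alone 4 of 24, against 23.6%. These backgrounds were not matched for gene length or peak number. Protein-coding genes with 1 wild-type peak had 0 knockout peaks in 52.4% of cases, and those with 3 in 18.5%. The count for wild type alone was 0 with a −log10 q of at least 5 or with equal numbers of peaks per list, where WIZ had no peak left, and 3 with peaks in the bounds of 1 gene alone.

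The list held 70 wild-type and 68 knockout peaks, and 15 of the wild-type ones were shared, leaving 78.6% unshared, close to the 79.6% of the whole list. MECOM, which encodes PRDM3, had the most, with 12 and 13 peaks and 3 shared wild-type peaks. ZNF518A, a zinc finger gene, held 3 and 8 with 2 shared, and CDYL, a chromodomain gene, 8 and 2 with 2 shared. MPHOSPH8, the H3K9me3 reader of the HUSH complex, held 3 and 4, and all 3 wild-type peaks were shared. CBX1, the HP1β gene, held 2 and 2 with both shared. In contrast ATF7IP, the SETDB1 cofactor gene, held 4 and 4 with 0 shared, PPHLN1 of the HUSH complex 3 and 5 with 0, and ZNF644, a partner of EHMT1 and EHMT2, 5 and 4 with 0. ARID5B, a cofactor gene of the demethylase PHF2, held 5 and 3 with 1 shared and the highest fold of the list, 20.5. No peak in ATF7IP2 or PRDM16 was counted on the strand of the gene, nor was the only wild-type peak in TASOR. A strand was available for 15843 of the 20056 protein-coding genes, and a gene without one would also count 0 such peaks. Whether the peaks in ATF7IP2 and PRDM16 are antisense is therefore not known here. TASOR had 1 knockout peak on its strand. The counts of pathway genes with peaks take peaks on either strand.

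**Figure D5:**
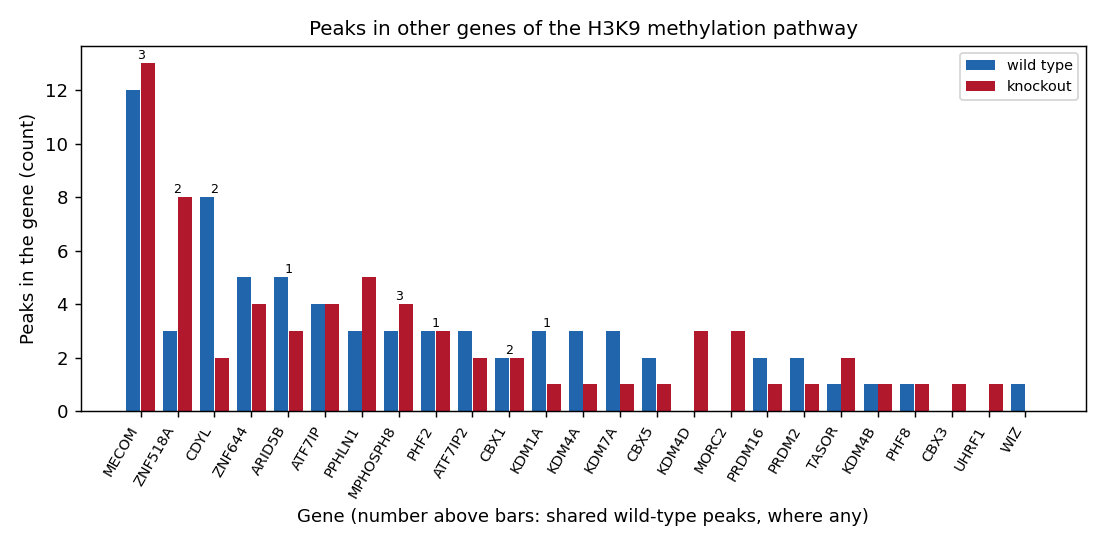
Peaks per gene (count, y axis) in wild type (blue) and knockout (red) for the 25 further H3K9 pathway genes with a peak (x axis), with shared wild-type peaks as numbers above the bars. MECOM leads with 12 and 13 peaks, and CBX3, UHRF1, MORC2 and KDM4D show knockout bars alone.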

How the data were processed

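Chromosome-associated RNA libraries were treated per the labels' protocols as m6A IP and input, in stranded form. Per the submitters' processing notes the tools were MACS2 2.2.7.1, SAMtools 1.15.1 and HISAT2 2.2.1, with hg38 as build. The deposited lists, 1 per genotype, give each peak a fold (the ratio of IP to local input on a linear scale), a deposited −log10 p and −log10 q, and a deposited score, which was not used. Whether replicates were pooled before calling, the threshold, and total reads are not given in the sources used here.

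Peaks were matched to RefSeq gene bounds of GRCh38.p14, strand taken from the promoter table, using SciPy 1.17.1, pandas 2.3.3, numpy 2.4.6 and matplotlib 3.10.9 under Python 3.11.15. Coordinates are 1-based. IP reads were solved from fold, p and multiples of 0.02 in local input (tolerance 0.02), for 97.8% to 99.6% of peaks per strand and list. In the fold 1 IP read weighed 0.607 (plus strand) and 0.572 (minus) for WT, and 0.479 and 0.438 for the knockout. The procedure was checked on simulated peaks. Intervals are exact Poisson or Clopper-Pearson at 95% and cover counting error only; reads copied by PCR are not independent molecules.

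No test was made, since the lists hold no replicates. By rule the text names all members and, of the other pathway genes, those with peaks in 1 list alone and the 8 with most peaks. CBX1, ATF7IP2, PRDM16, TASOR and the genes with 0 peaks were named after their values were seen. Members and lists were chosen with earlier results of these data known. Alternatives covered the q threshold, list length, overlap rule, strand, gene assignment and fold scale.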

Additional observations from a re-analysis of the deposited data

How the results depend on the processing

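No paired analysis was possible because neither list holds values per replicate, and for the same reason no replicate could be left out in turn. Of 38 alternative values 33 stayed within 1.5 times the count, the interval of the share or 1 SD of the pairs' log2 difference. With an overlap of at least 50% of both peaks, 96.4% of wild-type and 96.3% of knockout member peaks were unshared, where 83.0% and 79.3% of all peaks were, and 1 shared pair was left, in JMJD1C (log2 difference −1.04). Pathway genes with wild-type peaks alone, 1 as reported, numbered 0 with a −log10 q of at least 5, 0 with equal numbers of peaks in each list, and 3 with peaks in 1 gene alone. Unshared shares of the members ranged from 82.6% to 85.7% in wild type and 83.3% to 85.2% in the knockout under the alternatives other than the 50% overlap. Member genes with wild-type peaks alone numbered 2 with equal list lengths and 2 with peaks in 1 gene alone. Depth limits single peaks, since several members rest on 12 to 16 reads.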

Other observations

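The widths of the member peaks were compared with those of the lists. The median was 210 bp (WT) and 201 bp (knockout), against 204 and 209 bp for all peaks, and 39.3% of wild-type and 40.7% of knockout member peaks were no wider than 200 bp, against 40.7% and 35.2% of all peaks. The exceptions over 500 bp were the JMJD1C peak of 686 bp, the SETDB1 peak of 659 bp and the KDM4C peak of 543 bp in wild type, and a JMJD1C peak of 519 bp in the knockout. The latter was 568 bp from its neighbour, the smallest gap between member peaks of 1 list and strand.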
